A study of Mus musculus with 9 samples.

Results

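miR-451a, miR-144 and miR-486 are the microRNAs (miRNAs, small RNAs by which messenger RNAs are repressed) most closely tied to red blood cells, and their levels were read in mouse liver after acetaminophen (APAP), with and without a prostaglandin analog. They were chosen by name, as the rows mmu-miR-451a, mmu-miR-144-3p, mmu-miR-144-5p, mmu-miR-486a-5p, mmu-miR-486a-3p and mmu-miR-486b-3p of the deposited table, which makes 6 of 946 rows. All 6 rows were among the 360 that passed the filter on low counts. The 3 miR-486 rows hold nearly the same reads, differing by 2 to 17 reads in any library, so they are read here as 1 miRNA and the rows as 4 miRNAs.

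Small RNA from whole liver was sequenced in 9 libraries of wild-type C57 BL6 mice, 8 weeks old, in 3 groups of 3. Control mice were given saline, APAP mice 500 mg/kg of the drug into the peritoneum, and dmPGE2+APAP mice 300 µg/kg dmPGE2, a methylated prostaglandin E2, by the same route 1 h ahead of 500 mg/kg APAP. Livers were taken 6 h after APAP. Every dmPGE2 library also had APAP, no group had dmPGE2 alone, and the labels do not say whether blood was flushed from the livers or whether each library is a separate animal. The p-values therefore set group differences against the scatter of these libraries, part of which may be technical, and not surely against that between animals. Totals ran from 1038799 reads in dmPGE2+APAP replicate 2 to 10483460 in Control replicate 3, and the hepatocyte miRNA miR-122-5p, at a mean of 179307 to 226860 CPM per group, marked the tissue as liver. CPM here is the read count scaled to a common library size by TMM, a method that sets libraries level by the bulk of their miRNAs.

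The locus of miR-144 and miR-451a is switched on in red-cell precursors by the transcription factor GATA1, and both hairpins come from 1 primary transcript. miR-451a is cut by Argonaute2 in place of Dicer, stays in mature red cells in large amounts, and protects them against oxidative stress in the mouse. miR-144-3p represses Nrf2, a regulator of antioxidant genes, in human red-cell lines. miR-486 lies within Ank1, the gene of the red-cell membrane protein ankyrin 1, and is made in skeletal and heart muscle too. Whole liver holds blood, so red-cell miRNAs in it can come from blood in its vessels, and in such bulk tissue fewer cells of a type cannot be told apart from less RNA per cell.

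The hairpins are shown because they differ in which strand becomes the mature miRNA. On GRCm38.p6, the RefSeq build that corresponds to mm10, Mir144 lies at chr11:78073005-78073070 and Mir451a at chr11:78073170-78073241, both on the plus strand and separated by 99 bases. Capitals mark the mature miRNAs, 5′ to 3′, and the sequences are those of RefSeq.
Mir144: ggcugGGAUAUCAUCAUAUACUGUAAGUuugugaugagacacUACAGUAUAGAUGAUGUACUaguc
Mir451a: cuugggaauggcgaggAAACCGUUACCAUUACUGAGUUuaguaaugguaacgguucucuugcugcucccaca

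Mir144 gave a strand from each arm, with miR-144-5p at bases 6 to 28 and miR-144-3p at bases 43 to 62 of its 66 bases. miR-451a filled bases 17 to 38 of 72 and so ran past the middle of its hairpin. In the mature sequences below, capitals mark the seed, bases 2 to 8, by which a miRNA pairs with its targets.
miR-451a: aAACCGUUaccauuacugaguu
miR-144-3p: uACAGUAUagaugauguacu
miR-144-5p: gGAUAUCAucauauacuguaagu

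No other row of the table with a RefSeq sequence (795 of 946) had any of these 3 seeds. Bases 2 to 7 of miR-144-3p recurred in 1 other row, miR-101a-3p, which differs from it in the last seed base and is known to be abundant in liver.
miR-101a-3p: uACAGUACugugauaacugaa

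Its level was 4221 ± 1850.2 CPM for Control, 4046 ± 945 for APAP and 3684 ± 754 for dmPGE2+APAP (SD, n = 3), far above that of miR-144-3p. It had log2 values of -0.06 (SE 0.29) for APAP against Control and -0.14 (SE 0.29) for dmPGE2+APAP against APAP. Mir486 (chr8:23142555-23142682) and Mir3107, the gene of miR-486b (chr8:23142573-23142662), lie one inside the other within the span of Ank1 (chr8:22974836-23150501).

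Counts are given per mature miRNA, and these levels use no length term. miR-451a was by far the highest of the 4 miRNAs in every library. In Control it held 402, 446 and 379 CPM. In APAP it held 1172, 639 and 590.2 CPM. In dmPGE2+APAP it held 291, 279 and 314 CPM. The 3 groups did not overlap, with dmPGE2+APAP lowest and APAP highest. Pair by pair, every APAP library was above every Control library for 8.61% of all tested miRNAs. Every dmPGE2+APAP library was below every APAP library for 8.06%, and below every Control library for 8.61%. The share with all 3 groups in this order was not counted. The spread within APAP was wide (SD 40.3% of the mean) beside that in Control (8.31%) and dmPGE2+APAP (6.12%). APAP replicate 1 stood well above its group. By group mean the miRNA ranked 49th of all rows for Control, 39th for APAP and 60th for dmPGE2+APAP.

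miR-486a-5p, the row used here for miR-486, was the second most abundant of the 4 miRNAs in each group. It held 45.9, 60.7 and 37.1 CPM for Control, 156, 68.2 and 98.5 for APAP and 43.0, 57.1 and 44.4 for dmPGE2+APAP. All APAP libraries lay above all of both other groups, which covered nearly the same range. By pair, APAP lay so above Control for 8.61% of all tested miRNAs and above dmPGE2+APAP for 8.06%. The share with APAP above both was not counted. The closest approach was between APAP replicate 2 and Control replicate 2. miR-486a-3p and miR-486b-3p gave group means within 2 CPM of it (48.7 and 47.7 in Control, 109 and 108 in APAP, 49.6 and 48.0 in dmPGE2+APAP).

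miR-144-5p, usually taken as the passenger strand of its hairpin, held 14.1, 27.0 and 12.3 CPM for Control, 47.9, 24.9 and 21.8 for APAP and 14.0, 10.2 and 12.9 for dmPGE2+APAP. Control replicate 2 overlapped the APAP libraries. The dmPGE2+APAP libraries were each under every APAP library, as for 8.06% of all tested miRNAs. miR-144-3p, usually taken as the strand that represses targets, was the lowest of the 4 by group mean. It held 11.0, 9.24 and 1.84 CPM for Control, 21.2, 12.1 and 20.1 for APAP and 4.10, 13.6 and 7.16 for dmPGE2+APAP. Its reads were fewer than those of miR-144-5p in every library but dmPGE2+APAP replicate 2. Counting error weighed on these rows. The 16 reads of miR-144-3p in dmPGE2+APAP replicate 2 allow 7.79 to 22.1 CPM, and the 12 reads of miR-144-5p there allow 5.28 to 17.9 CPM, by exact 95% Poisson intervals that cover counting error only.

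**Figure D1:**
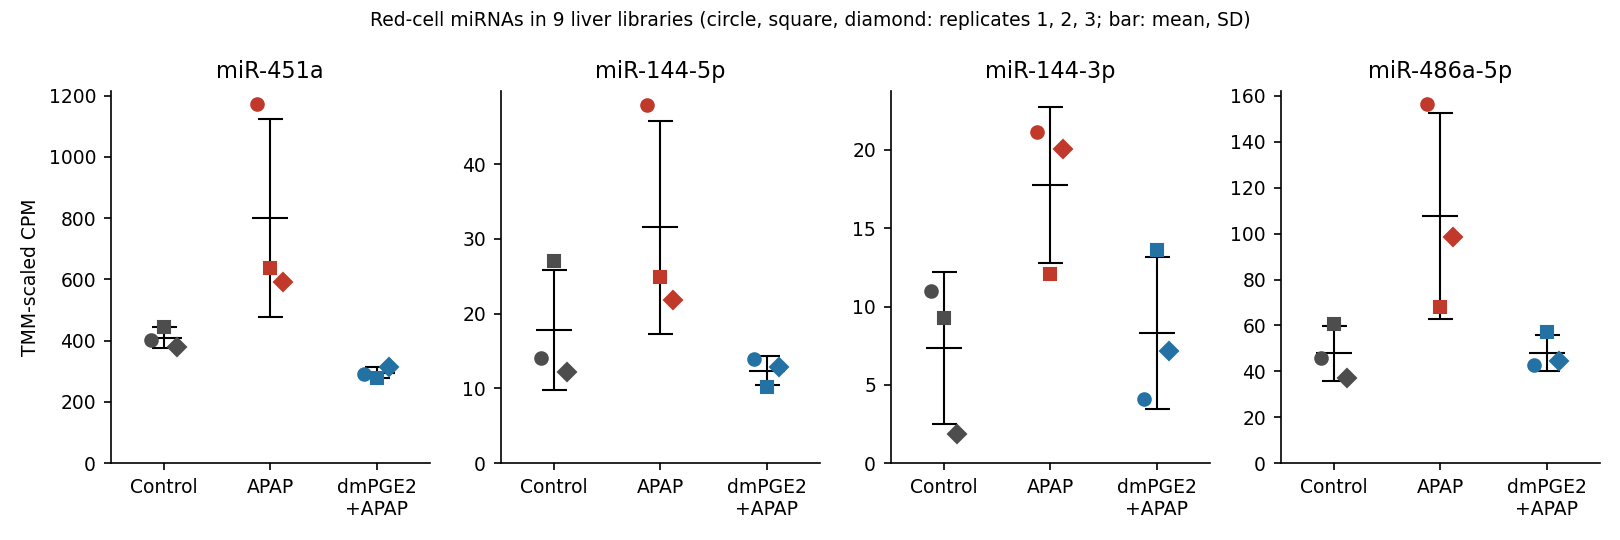
TMM-scaled CPM (vertical axes, starting at 0) of miR-451a, miR-144-5p, miR-144-3p and miR-486a-5p in the 3 libraries of each group, with bars for mean and SD. APAP replicate 1 (circle) is the highest library in all 4 panels, at 1172 CPM for miR-451a, and the dmPGE2+APAP libraries of miR-451a sit together between 279 and 314 CPM.

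The first comparison asks how acetaminophen alone altered these miRNAs at 6 h. All 4 had higher means after APAP, by 1.78 to 2.44 times in the fit, but none passed over all miRNAs. miR-451a had a log2 value of 0.97 (SE 0.24, 95% interval 0.45 to 1.48) and miR-486a-5p 1.17 (SE 0.29, 0.56 to 1.78), each at 0.0571 for the edgeR adjusted p (quasi-likelihood, Benjamini-Hochberg). Called rows were 0 of 6, where 0.833% of all tested miRNAs were called. At an unadjusted p below 0.05 there were 6 of 6 rows, which stand for 4 miRNAs, against 35 of 360 miRNAs. DESeq2, which called 3.61% of miRNAs here, called 4 of the 6 rows, miR-451a (adjusted p 0.0104) and the 3 rows of miR-486 (0.00650 to 0.00663). By limma-voom, which called 0.556% of miRNAs, 0 of the 6 rows passed (adjusted p 0.0888 for miR-451a and for miR-486a-5p).

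The strands of miR-144 were less well determined. miR-144-3p had a log2 value of 1.29 (SE 0.54, adjusted p 0.423 by edgeR) and miR-144-5p of 0.83 (SE 0.34, adjusted p 0.389). The groups did not overlap for 5 of the 6 rows, all but miR-144-5p, where 8.61% of all tested miRNAs had every APAP library above every Control library. With library totals as the scale that count was 6, where 16.4% of all tested miRNAs did so. The miR-486 rows among them hold nearly the same reads, so either tally is smaller by miRNA. The median log2 value was 1.17 over the 6 rows and 1.07 over the 4 miRNAs, against -0.05 over all 360. Scaling by library totals moved the median of all miRNAs by 0.25, and relative to the median miR-451a stood at 1.01 with TMM and 1.02 with totals.

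APAP replicate 1 decided much of the size. Without it the log2 values became 0.61 for miR-451a, 0.82 for miR-486a-5p, 0.42 for miR-144-5p and 1.16 for miR-144-3p, with edgeR adjusted p of 0.399, 0.399, 0.898 and 0.820. The first pair passed when APAP replicate 2 was left out (0.0326 and 0.00823) or when any dmPGE2+APAP library was (up to 0.0471 and 0.0442).

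The second comparison asks what dmPGE2 before APAP changed relative to APAP alone. miR-451a fell, and it was the only one of all tested miRNAs to pass (0.278% called). From 800.4 ± 323 CPM it came to 295 ± 18.0 (SD, n = 3) with dmPGE2, a fold of 0.368 (95% interval 0.256 to 0.530) with an edgeR adjusted p of 0.00993. Leaving out APAP replicate 1 ended the call (log2 -1.05, adjusted p 0.0620 by edgeR), as did fits without dmPGE2+APAP replicate 2 (-1.35, 0.0568), with only these 2 groups in the fit (0.0964) and with the deposited TPM (0.0868 by limma).

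The other 3 miRNAs had values of like size and did not pass. miR-486a-5p had a log2 value of -1.18 (SE 0.29, adjusted p 0.0912 by edgeR), miR-144-5p of -1.32 (SE 0.36, 0.122) and miR-144-3p of -1.28 (SE 0.58, 0.703). By unadjusted p the rows ranked 1, 3, 4, 5, 7 and 22 of 360, with 23 miRNAs in all below 0.05. Ranks 3, 4 and 5 were the miR-486 rows, which hold nearly the same reads and stand for 1 miRNA. DESeq2 called 8 miRNAs (2.22%), and the 5 it called lower were miR-451a, miR-144-5p (0.0376) and the 3 miR-486 rows (0.0190). Without APAP replicate 1 the log2 values were -0.80 for miR-486a-5p, -0.88 for miR-144-5p and -1.11 for miR-144-3p.

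The dmPGE2+APAP libraries were each under every APAP library for 5 of the 6 rows, all but miR-144-3p, where 8.06% of all tested miRNAs did so. The miR-486 rows among the 5 hold nearly the same reads, so the tally by miRNA is smaller. With library totals the count was 4, where 9.17% of all tested miRNAs did so, as the 2 groups then met in miR-486a-3p. The median log2 value over the 6 rows was -1.23, and that over all 360 miRNAs was 0.00. This comparison and the first share the APAP libraries, so a high APAP library raises the size of both, and their opposite signs are not independent.

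The third comparison sets dmPGE2+APAP against Control. APAP-only libraries are in neither group, but the shared fit uses them for the filter, the scaling and the spread. With only the 2 groups compared in the fit, miR-451a had a log2 value of -0.45 (adjusted p 0.525 by edgeR). None of the 6 rows passed by edgeR (0.278% of miRNAs called) or by DESeq2 (0.556% called), and a missed threshold does not show equal levels. miR-451a had a log2 value of -0.47 (SE 0.24, 95% interval -0.99 to 0.04, adjusted p 0.481 by edgeR), a fold of 0.721, and its 3 libraries all lay below Control, as 8.61% of all tested miRNAs did. It was the 1 row of 6 to do so by either scaling, and with library totals 3.33% of all tested miRNAs did.

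miR-144-5p stood at -0.48 (95% interval -1.25 to 0.29). miR-486a-5p was at -0.01 (-0.63 to 0.61) and miR-144-3p at 0.01 (-1.29 to 1.31), so the interval of miR-486 as a fold was 0.648 to 1.52, while that of miR-144-3p was far wider. With library totals miR-486a-5p turned to 0.27 and miR-451a stood at -0.22. In order of level miR-451a ran dmPGE2+APAP, Control, APAP. Neither the lower pair nor the upper pair differed beyond the test's threshold (edgeR adjusted p 0.481 and 0.0571). Only the outer pair, dmPGE2+APAP and APAP, did. For miR-486a-5p the means of Control and dmPGE2+APAP were 47.9 and 48.1 CPM.

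**Figure D2:**
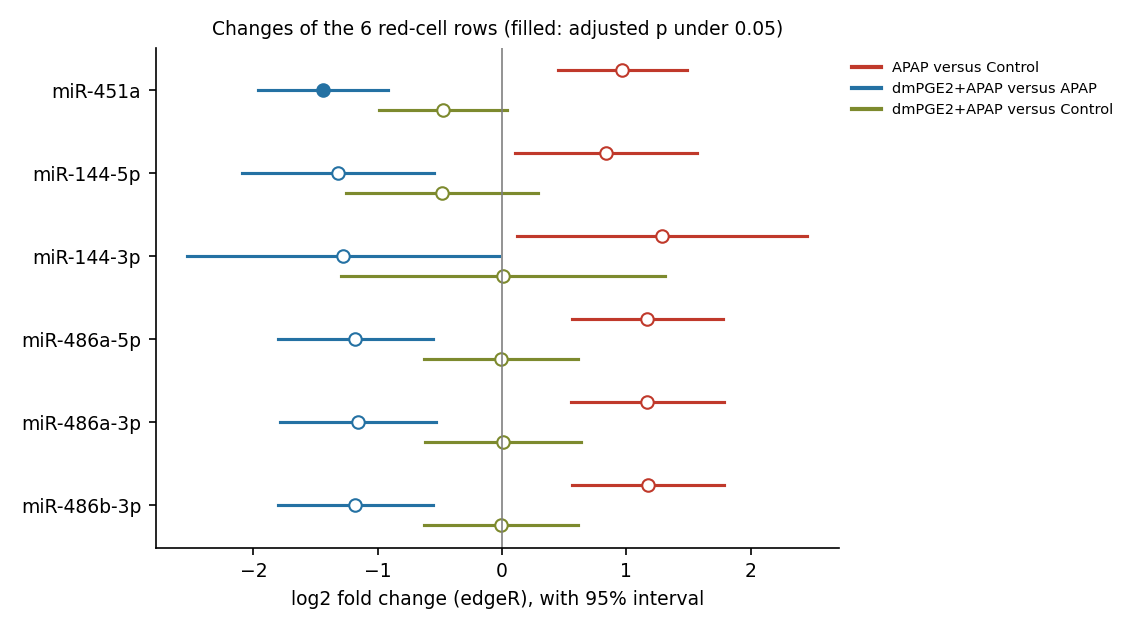
Log2 fold changes (horizontal axis) of the 6 rows with 95% intervals from the edgeR fit, in 3 comparisons told apart by colour, with filled points for an adjusted p under 0.05. Only miR-451a in dmPGE2+APAP against APAP, at -1.44, is filled, and the intervals of miR-144-3p are the widest.

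Ratios of 2 rows within a library need no scaling between libraries. They were compared by exact two-sided permutation tests, 12 in all, where 3 against 3 libraries cannot go below 0.1. miR-451a over miR-122-5p, blood against hepatocyte, was 1 read per 447, 726 and 466 of miR-122-5p in Control. In APAP it was 1 per 157, 306 and 267. In dmPGE2+APAP it was 1 per 728, 638 and 584. The APAP libraries were apart from both other groups. How often ratios of other miRNAs separate the groups was not tested. The ratio also moves with miR-122-5p, which had edgeR log2 values of -0.34 (SE 0.23) in APAP against Control and 0.09 (SE 0.23) in dmPGE2+APAP against APAP. The mean log2 ratio was higher by 1.18 in APAP than in Control and lower by 1.47 in dmPGE2+APAP than in APAP, each at the smallest possible exact p of 0.1 (0.4 after Benjamini-Hochberg adjustment). dmPGE2+APAP and Control overlapped (log2 difference -0.28, exact permutation p 0.3).

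The ratio of miR-486 to miR-451a was compared in the same way. A read of miR-486a-5p came with 8.74, 7.34 and 10.2 reads of miR-451a for Control, 7.50, 9.36 and 5.98 for APAP and 6.77, 4.85 and 7.07 for dmPGE2+APAP. All dmPGE2+APAP libraries had fewer reads of miR-451a per miR-486 read than all Control libraries, a log2 difference of 0.50 in the ratio of miR-486a-5p over miR-451a, at the smallest possible exact permutation p of 0.1 (0.4 adjusted). The APAP libraries overlapped both groups (exact p 0.5 and 0.4).

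The strands of Mir144 varied widely between libraries of 1 group. Reads of miR-144-3p per read of miR-144-5p were 0.782, 0.343 and 0.154 for Control, 0.442, 0.485 and 0.923 for APAP and 0.296, 1.32 and 0.559 for dmPGE2+APAP. dmPGE2+APAP replicate 2, with more 3p than 5p reads, was the shallowest library and rests on 16 and 12 reads. The groups overlapped in every comparison (exact permutation p from 0.4 to 1). The ratio of miR-144-3p to miR-451a also overlapped throughout (exact p from 0.5 to 0.8), with Control replicate 3 lowest at 20 reads of miR-144-3p against 4119 of miR-451a.

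**Figure D3:**
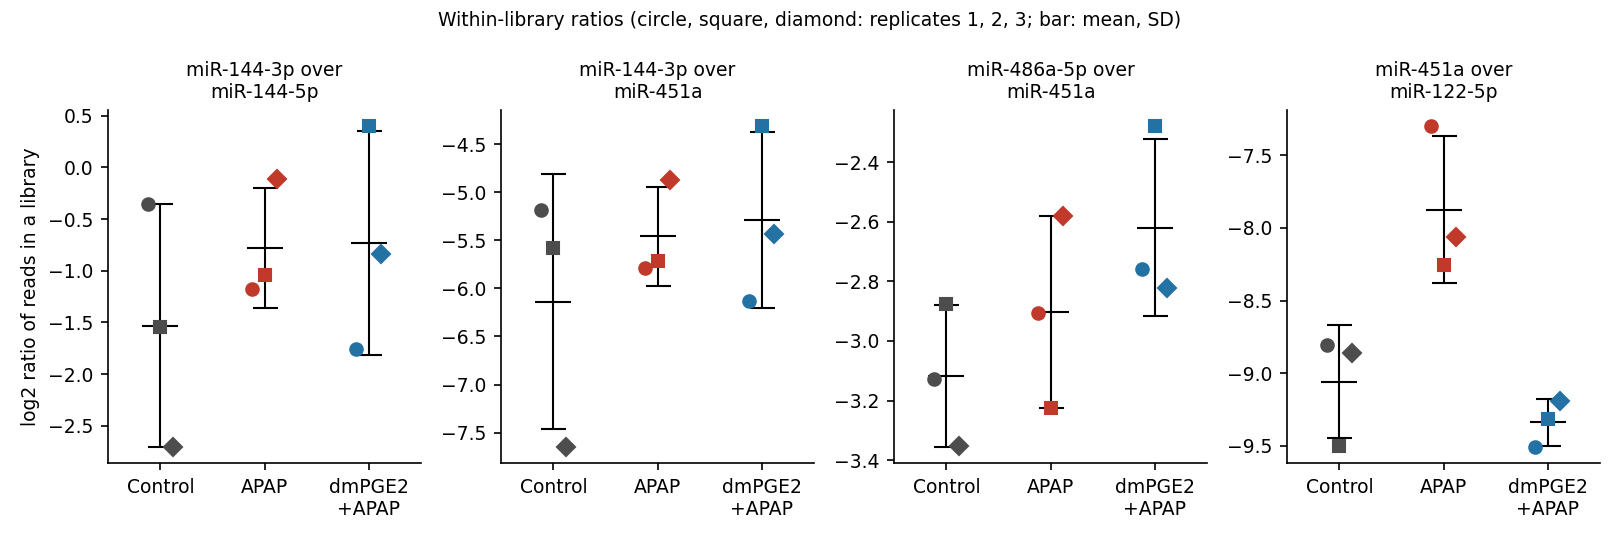
Log2 ratios of reads of 2 miRNAs within a library (vertical axes, a log2 scale that does not start at 0), for 3 libraries a group with mean and SD. miR-451a over miR-122-5p separates APAP from both other groups, miR-486a-5p over miR-451a separates dmPGE2+APAP from Control, and miR-144-3p over miR-144-5p spreads over 2.35 log2 units in Control alone.

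Across the 9 libraries, in log2 CPM, miR-451a followed miR-144-5p most closely (Pearson r = 0.93), then miR-486a-5p (0.88) and miR-144-3p (0.57). These correlations describe libraries that share 3 group means, and APAP replicate 1 was the highest library of each. Among 191 other miRNAs of at least 10 CPM, the most alike in pattern were miR-106b-5p (0.79), miR-223-3p (0.76), miR-15b-5p (0.73), let-7i-5p (0.73) and miR-98-5p (0.69). Their log2 values ranged from 0.08 to 1.03 in APAP against Control and from -0.93 to -0.35 in dmPGE2+APAP against APAP, and none passed the test. Of these, miR-223-3p, an abundant miRNA of neutrophils, held 13.9, 10.7 and 15.8 CPM for Control, 34.8, 19.0 and 29.2 for APAP and 18.4, 7.67 and 15.1 for dmPGE2+APAP.

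Other miRNAs that red cells hold, but that most tissues make too, showed smaller values. Of 15 listed, 14 were tested and 0 passed in any comparison. After APAP 9 were above 0 and 5 below, with a median log2 value of 0.05 against -0.05 for all miRNAs. With dmPGE2 2 were above and 12 below, with a median of -0.21 against 0.00. miR-16-5p, a common reference miRNA abundant in red cells, was at 632 ± 160 CPM for Control, 629 ± 102 for APAP and 546 ± 108 for dmPGE2+APAP (SD, n = 3). miR-22-3p and miR-191-5p, the other most abundant ones with let-7b-5p, had log2 values between -0.13 and 0.07. The list's summed level, mostly miR-22-3p, was 16357 to 24662 CPM for Control, 17728 to 21296 for APAP and 18124 to 19763 for dmPGE2+APAP.

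Muscle, the other known source of miR-486, was followed by its own miRNAs, most of which had values of the other sign after APAP. All 9 listed were in the table and 5 were tested, with 1 above 0 and 4 below and a median log2 value of -1.12, and 0 passed. With dmPGE2 again 1 was above 0 and 4 below, with a median of -0.42, the sign that miR-486 had there, and 0 passed. The heart and skeletal muscle miRNA miR-1a-3p held 1335 ± 1083 CPM in Control and 614 ± 290.2 in APAP (SD, n = 3), and the row miR-1b-5p, another of the 5, holds nearly the same reads. The list's summed level was 935 to 5246 CPM for Control, 614 to 1772 for APAP and 663 to 1407 for dmPGE2+APAP. The part of muscle RNA in the miR-486 values was not tested.

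Myeloid markers had values in the direction of the red-cell rows. All 4 myeloid miRNAs, the strands of miR-223 and miR-142a, were above 0 after APAP (median log2 0.59), as were 44.7% of all tested miRNAs. With dmPGE2 all 4 were below 0 (-0.75), as were 50% of all tested miRNAs, and 0 were called. The summed level of these myeloid miRNAs was 124 to 233 CPM for Control, 177 to 319 for APAP and 153 to 238 for dmPGE2+APAP. Their part in the red-cell result was not tested. Of the lymphoid list 2 of 4 were tested, with 1 above 0 and 1 below after APAP. Its summed level was 15.1 to 34.5 CPM for Control, 21.3 to 34.1 for APAP and 28.0 to 31.9 for dmPGE2+APAP.

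Endothelial and hepatocyte miRNAs had smaller values. The endothelial strands miR-126a-3p and miR-126a-5p had log2 values of 0.09 and 0.17 after APAP, with summed levels of 7437 to 9115 CPM for Control, 7990.0 to 9434 for APAP and 8788 to 10174 for dmPGE2+APAP. Of 5 hepatocyte miRNAs, 1 was above 0 and 4 below after APAP (median -0.26) and 4 above and 1 below with dmPGE2 (0.09), with summed levels of 256851 to 417770 CPM for Control, 241637 to 278702 for APAP and 277426 to 288085 for dmPGE2+APAP. Neither list had a called member (0). No marker of these lists was at 0 reads in all libraries.

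miRNAs that hold back red-cell maturation had values near those of all miRNAs. Of miR-221-3p, miR-222-3p, miR-155-5p and miR-24-3p, 2 were above 0 and 2 below after APAP and likewise with dmPGE2, with medians of 0.01 and -0.13 and 0 called. miR-221-3p, which with miR-222-3p represses Kit, was at 162 ± 21.4 CPM for Control, 152 ± 16.2 for APAP and 126 ± 31.6 for dmPGE2+APAP (SD, n = 3).

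In plasma, miR-451a is set against miR-23a-3p, which red-cell lysis leaves steady, to score haemolysis. In these livers miR-23a-3p ranged widely, at 177, 137 and 233 CPM for Control, 540.1, 266 and 488 for APAP and 426, 249 and 151 for dmPGE2+APAP. Its log2 value was 1.24 (SE 0.35, adjusted p 0.111 by edgeR) after APAP. In dmPGE2+APAP against APAP it was -0.64 (SE 0.35, adjusted p 0.785 by edgeR). Reads of miR-451a per read of miR-23a-3p were 2.27, 3.26 and 1.63 for Control, 2.17, 2.40 and 1.21 for APAP and 0.683, 1.12 and 2.08 for dmPGE2+APAP. On this measure APAP lay within or near the Control range, unlike the ratio to miR-122-5p, and dmPGE2+APAP reached lowest while overlapping both. The measure also moves with miR-23a-3p, whose log2 value after APAP (1.24) was of like size to that of miR-451a (0.97).

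**Figure D4:**
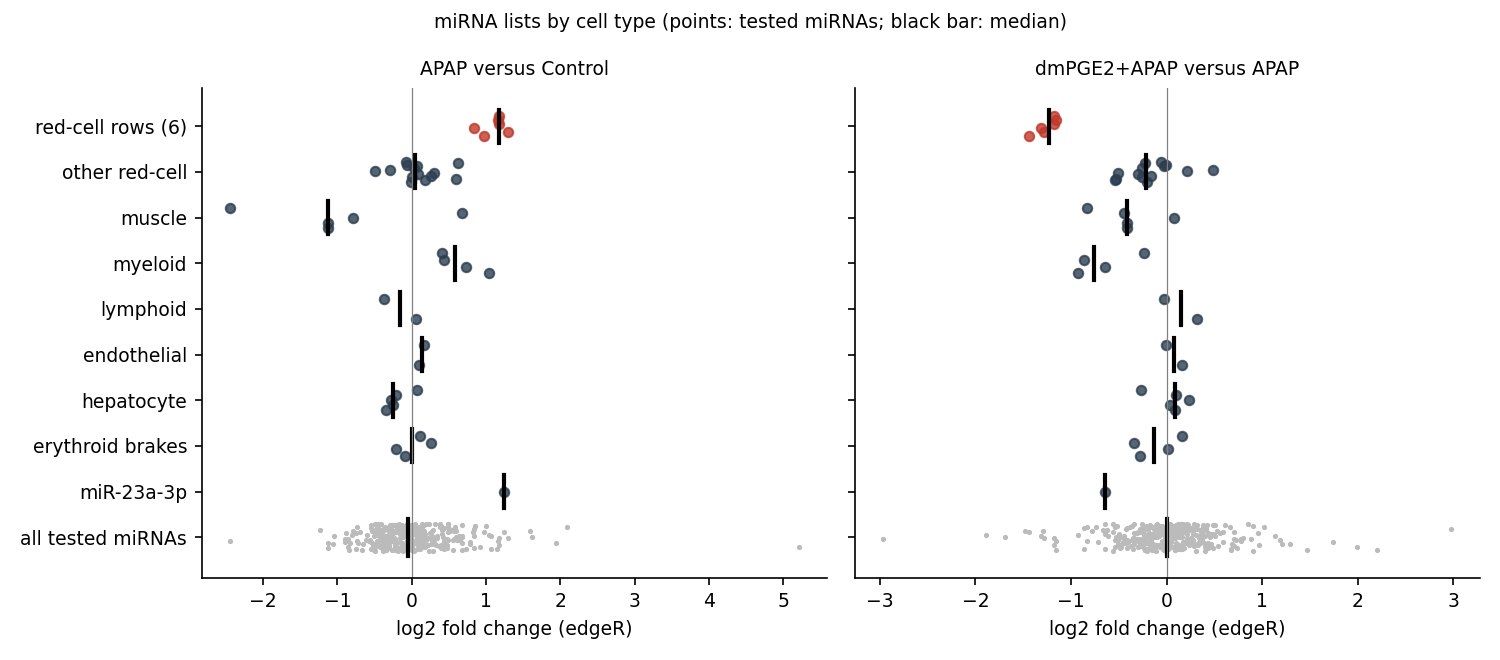
Log2 fold changes (horizontal axes) of tested miRNAs by list for APAP against Control (left) and dmPGE2+APAP against APAP (right), with a black bar at each median and all 360 tested miRNAs in grey. The 6 red-cell rows, of which 3 count the same reads, have medians of 1.17 and -1.23, the myeloid list 0.59 and -0.75, and the other red-cell list 0.05 and -0.21.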

How the data were processed

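The read counts deposited by the authors are whole numbers per mature miRNA, unnormalized, per the file headers. The authors also deposited TPM, per the file headers; each value is the count over its library total on a common scale, with no length term, and served 1 alternative. The submitters' processing notes name Bowtie and mm10. How reads were counted, and whether by strand, is not given in the sources used here, so antisense rows may share reads. Columns with the prefix BC match no label and were taken as Control because the other groups are named.

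The test was that of edgeR 4.0.16 under R 4.3.3 (TMM, filterByExpr with minimum count 10 and total 15, robust quasi-likelihood test, all 9 libraries in 1 fit), with p-values adjusted over 360 miRNAs at 0.05. SE values derive from the F statistic. DESeq2 1.42.0 and limma 3.58.1 were alternatives. Ratios used 0.5 added reads. Scripts were tested on simulated data. Named miRNAs were the 6 rows, rows sharing a seed, the 5 most alike in pattern and up to 4 abundant members per list. miR-101a-3p, of which only bases 2 to 7 match, was chosen after its values were seen. Members and lists were chosen with earlier results of these data known.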

Additional observations from a re-analysis of the deposited data

How the results depend on the processing

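All 4 miRNAs kept a value above 0 in APAP against Control and below 0 in dmPGE2+APAP against APAP under all alternatives run, which share most libraries. Depth limits miR-144 in dmPGE2+APAP replicate 2. The counts of rows that follow take in the miR-486 rows, which hold nearly the same reads. Of the 6 rows, those called in APAP against Control were 0 in the fit reported (of 3 calls among 360 miRNAs), 4 with library totals (of 8 calls, 2.22% of miRNAs), 4 with DESeq2 (of 13, 3.61%), 4 with only the 2 groups compared (of 7, 2.01%), 5 with no filter (of 9, 0.951%), 2 after thinning to the shallowest library (of 3, 1.3%), and 0 to 4 with 1 library left out (of 0 to 9, at most 2.45%). In dmPGE2+APAP against APAP they were 1 as reported (of 1 call), 5 with DESeq2 (of 8, 2.22%), 6 with no filter (of 9, 0.951%), 0 with only the 2 groups compared and with the deposited TPM (of 0 calls each), and 0 to 4 with 1 library left out (of 0 to 5, at most 1.36%). In APAP against Control 0 rows were called with limma-voom (of 2 calls, 0.556%) and with the deposited TPM (of 2, 0.556%). Likewise 0 were called under a 10 CPM minimum (of 0 calls) and with shared rows counted once (of 3, 0.875%). In dmPGE2+APAP against APAP library totals, limma-voom, a 10 CPM minimum, thinning and shared rows counted once each called 1 row (of 1 call). With no filter 946 rows shared 1 fit. The cause of these moves was not tested.

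With the replicate number as a block, miR-451a had adjusted p of 0.0847 in APAP against Control and 0.0130 in dmPGE2+APAP against APAP by edgeR, and the block changed no call of a member. Same-numbered libraries correlated from -0.25 to 0.17 in their deviations and 2 of 9 were closest to their own number. These values show no sign of pairing by number, but 3 libraries a group cannot exclude it. Counts of calls over all miRNAs became 0 from 3, 2 from 1 and 1 from 1 in the 3 comparisons.

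Values near 0 in dmPGE2+APAP against Control changed sign. From -0.01, miR-486a-5p and miR-486b-3p became 0.27 and 0.27 with library totals and with TPM, 0.036 and 0.038 with DESeq2, 0.018 and 0.021 under a 10 CPM minimum, 0.018 and 0.020 in the 2 groups alone, and 0.0059 and 0.0085 with the block; the former became 0.0040 with shared rows counted once, and the latter 0.15 after thinning. miR-486a-3p and miR-144-3p became -0.087 and -0.081 with no filter, and miR-144-3p -0.23 after thinning. With 1 library left out the log2 ranges were -0.14 to 0.26 (miR-486a-5p), -0.13 to 0.26 (miR-486b-3p), -0.12 to 0.29 (miR-486a-3p), -0.46 to 0.55 (miR-144-3p) and -0.66 to 0.0023 (miR-144-5p). The log2 ratio of miR-144-3p to miR-144-5p in dmPGE2+APAP against APAP ranged from -0.52 to 0.56 so, and that to miR-451a from -0.32 to 0.58, or from -0.076 to 1.16 in APAP against Control.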
